A study of Mus musculus with 16 samples.

Results

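The genes described here form the GDNF-RET branching axis of the kidney: the ligand gene Gdnf, the receptor genes Ret and Gfra1, the restraining pair Robo2 and Slit2, and the response genes Etv4, Etv5 and Wnt11. They were taken by name, with no cut on a measured value, though earlier results of these data were known when they were chosen. All non-control array probes whose transcript belongs to 1 of these 8 genes were taken, which gave 15 of the 56605 probes. The arrays compared whole kidneys of C57BL/6 mice at embryonic day 17.5, with 4 arrays in each of 4 genotypes. Ezh2-KO kidneys had lost Ezh2 from Six2-positive nephron progenitors and kept both Ezh1 alleles. Ezh1-het kidneys had the same loss of Ezh2 and were heterozygous for a germline Ezh1 knockout, and double-KO kidneys had the same loss of Ezh2 with the homozygous Ezh1 knockout. Control kidneys were labelled wild type. Whether the controls carried floxed alleles or a Cre is not given in the sources used here, nor is the Cre line. Every array set its own kidney RNA in Cy5 against RNA of control 1 in Cy3, with no dye swap. Control 1 was thus hybridised against itself, and every level below is a log2 ratio of a kidney's signal to that of control 1. On the array of control 1 itself this ratio was 0.37 for the brightest probe of Gfra1 and 0.25 for that of Etv5. Levels are therefore not ratios of RNA amount alone, and groups are compared through their differences. The series' design text calls the arrays of a group biological replicates. The titles call each control a pair of kidneys and each mutant a sample, and do not say whether a mutant sample was also a pair or whether littermates were used, so any difference of that kind between mutant and control material cannot be told apart from genotype.

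GDNF is a secreted factor of the metanephric mesenchyme, and the kidney's nephron progenitors are its main source there. It binds GFRA1, which presents it to the receptor tyrosine kinase RET on the tips of the ureteric bud, and the bud then grows and branches. SLIT2 acts through ROBO2 in the mouse to restrict where Gdnf is expressed. RET signalling turns on the ETS factor genes Etv4 and Etv5 in the bud tip, and Wnt11, made by the same tips, helps to keep Gdnf on in the mesenchyme. EZH1 and EZH2 are the alternative enzymes of Polycomb repressive complex 2, which trimethylates histone H3 at lysine 27 and keeps developmental genes silent. The progenitors that lost Ezh2 were thus the cells that make Gdnf. Ret and Wnt11 mark the neighbouring bud, in which the labels place only the germline Ezh1 loss. Etv4 and Etv5 are not confined to the bud, and whole-kidney RNA cannot tell which cells gave their signal.

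The upper quartile of Cy5 signal over local background was between 4.16 on control 2 and 12.4 on Ezh2-KO 4, between 53.1% and 63.4% of the probes were well above background, and no probe was saturated. Control 2 had the lowest signal. Ezh2-KO 1 and control 3 had the lowest values on the leading component of a principal component analysis (36.15% of the variance), at -31.4 and -37.3. The other arrays ran from -22.59 on double-KO 4 to 28.45 on Ezh1-het 1. The labels were borne out by Ezh1, which averaged 0.05 ± 0.33 in Ezh2-KO kidneys, -1.13 ± 0.20 in Ezh1-het kidneys and -4.55 ± 0.08 in double-KO kidneys, against -0.08 ± 0.26 in control kidneys (log2 ratio, SD, n = 4 each). For Ezh2, 1 probe of 5 (A_51_P248067) averaged -3.32 ± 0.34, -3.43 ± 0.31 and -3.09 ± 0.28 in Ezh2-KO, Ezh1-het and double-KO kidneys, against 0.09 ± 0.43 in control kidneys, while the brightest probe averaged -0.17 ± 0.16, -0.23 ± 0.06 and -0.11 ± 0.19, against 0.11 ± 0.29. Slide 1 held replicates 1 and 2 of every group and slide 2 held replicates 3 and 4, so slide and genotype were balanced. In whole-kidney RNA, fewer cells of a type and less RNA per cell cannot be told apart.

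Of the 8 genes, 7 had a probe well above background on enough arrays to be tested, and Ret did not. Under loess normalisation Robo2 was lower in Ezh2-KO and Ezh1-het kidneys (differences of -0.55 and -0.46, but -0.03 and 0.092 when arrays were centred on their medians instead). Gfra1 was lower in Ezh1-het kidneys under loess (-0.38, but 0.12 with median centring). Gdnf, Slit2, Etv4, Etv5 and Wnt11 passed the test in no comparison under loess. Tests were limma's moderated tests over all 15646 genes with Benjamini-Hochberg adjustment, two-sided, with a threshold of 0.05. In Ezh2-KO against control kidneys 1 of 7 genes passed, where 3.08% of all genes did and 0.677% did so downwards. In Ezh1-het against control kidneys 2 of 7 passed, both lower, where 7.81% of all genes passed and 1.9% did so downwards. In double-KO against control kidneys 0 of 7 passed in the limma fit, where 4.62% of all genes did, with 3 of 7 at an unadjusted p under 0.05 (17.1% of all genes). At that unadjusted level stood 4 of 7 in Ezh2-KO kidneys (21.3% of all genes) and 3 of 7 in Ezh1-het kidneys (25.4% of all genes). The median difference of the 7 genes was 0.03, -0.09 and 0.04 on the log2 scale in Ezh2-KO, Ezh1-het and double-KO kidneys, beside 0.06, 0.05 and 0.01 over all genes. The 3 comparisons share their control arrays. Of the 7 further probes of these genes that were kept, 0 passed against control in limma's fit over all 34731 probes kept, where 2.63%, 6.35% and 3.09% of the probes passed in Ezh2-KO, Ezh1-het and double-KO kidneys.

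**Figure D1:**
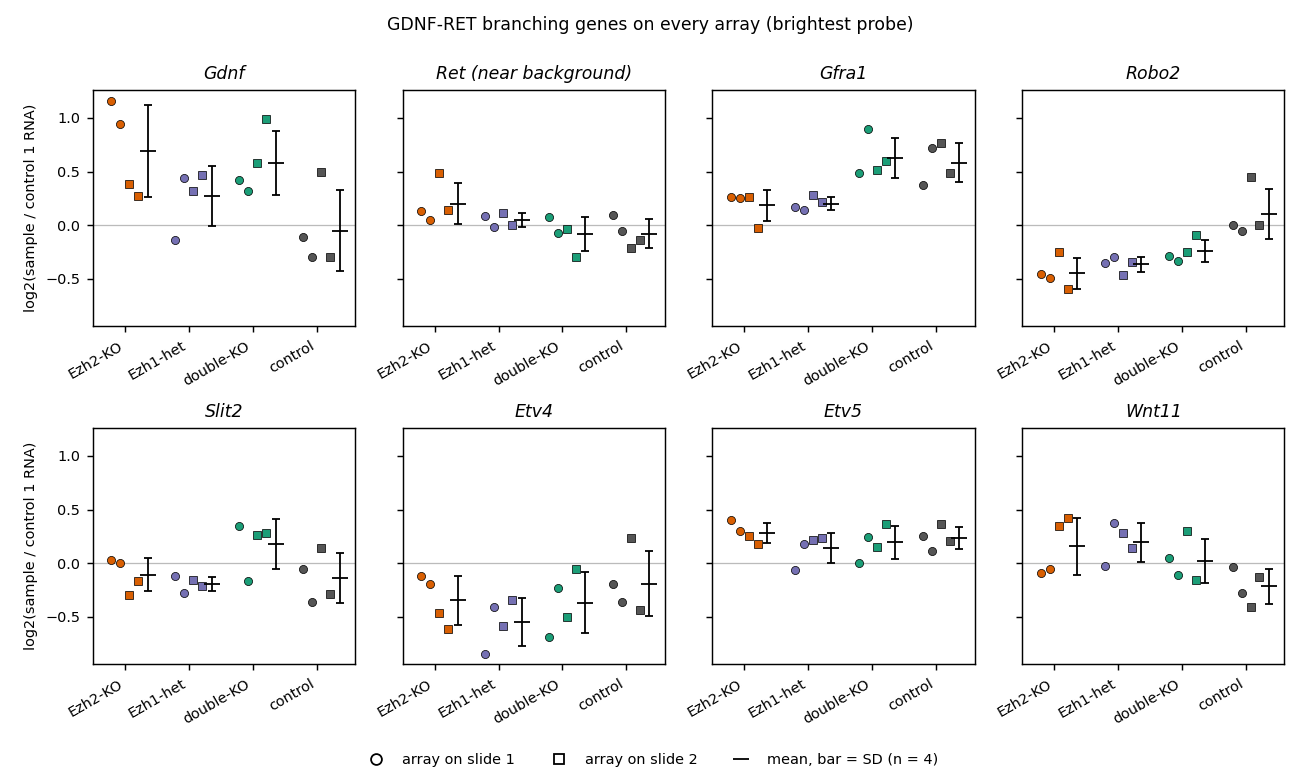
Each point is 1 array, as log2 of the kidney's signal over that of control 1 RNA after loess normalisation, for the brightest probe of each gene, with Ezh2-KO, Ezh1-het and double-KO kidneys left of control kidneys. Under loess Robo2 lies below every control array in all 3 mutant groups and Gfra1 in Ezh2-KO and Ezh1-het kidneys, whereas median centring gave Robo2 differences of -0.03, 0.092 and 0.19 and Gfra1 differences of 0.070 and 0.12. The Ret probe was near background.

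One choice of scaling shifts all comparisons with control. Under loess, which balances each array along signal intensity, the median gene differed from control by 0.06, 0.05 and 0.01 in Ezh2-KO, Ezh1-het and double-KO kidneys. When each array was only centred on its median, the median gene differed by 0.41, 0.44 and 0.38 on the log2 scale. Differences from control are therefore given under loess. For the brightest probe of each tested member, the value under median centring stands beside those that change sign or call. Under median centring 3, 3 and 4 of the 7 genes passed in Ezh2-KO, Ezh1-het and double-KO kidneys, all higher, where 6839, 8037 and 5364 of the 15646 genes passed. Gdnf and Etv5 passed there in all 3 groups, Wnt11 in Ezh2-KO and Ezh1-het kidneys, and Gfra1 (0.52, limma adjusted p = 0.0257) and Slit2 (0.86, 0.0177) in double-KO kidneys.

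Gdnf, the ligand gene, was measured by a bright probe (A_55_P2045896), 51.9 to 73.6 times the local background in Ezh2-KO kidneys and 10.5 to 44.2 times in control kidneys. Its log2 ratio was 1.16, 0.94, 0.39 and 0.28 in Ezh2-KO kidneys, -0.14, 0.44, 0.32 and 0.47 in Ezh1-het kidneys and 0.42, 0.32, 0.58 and 0.99 in double-KO kidneys, against -0.11, -0.29, 0.50 and -0.29 in control kidneys. Control 3 lay well above the other controls, above every Ezh1-het array and within the range of the Ezh2-KO and double-KO arrays, so each mutant group overlapped control. The difference was 0.74 (SE 0.22; 1.67-fold, 95% interval 0.27 to 1.21) in Ezh2-KO kidneys and 0.63 (1.55-fold, 0.16 to 1.10) in double-KO kidneys, with limma adjusted p = 0.0771 and 0.139. In Ezh1-het kidneys it was 0.32 (-0.15 to 0.79, limma adjusted p = 0.381). Under median centring Gdnf differed by 1.25, 0.86 and 1.14 in Ezh2-KO, Ezh1-het and double-KO kidneys and passed in each (limma adjusted p = 0.0201, 0.0304 and 0.0175), which was 0.84, 0.42 and 0.76 relative to the median gene. In order, Gdnf averaged 0.69 ± 0.43 in Ezh2-KO, 0.58 ± 0.30 in double-KO and 0.27 ± 0.28 in Ezh1-het kidneys, against -0.05 ± 0.38 in control kidneys (SD, n = 4 each), and neighbouring groups in that order overlapped.

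The Gdnf difference in Ezh2-KO kidneys was unequal between slides: 1.25 on slide 1 and 0.23 on slide 2, whereas in double-KO kidneys it was 0.57 and 0.69. Without control 3 the limma adjusted p was 0.0332 in Ezh2-KO and 0.0339 in double-KO kidneys, and the difference 0.92 and 0.81. The 2 Ezh2-KO arrays with the highest Gdnf had mean ureteric bud and collecting duct marker levels of -1.18 and -0.62, against 0.10 and 0.37 on the other 2, and control 3, the highest control for Gdnf, had -1.38, the lowest of all arrays. Their part in the Gdnf values was not tested. A second, dimmer Gdnf probe (A_55_P2745662), 1.62 to 3.70 times the local background, differed from control by 0.17, 0.14 and 0.38 in Ezh2-KO, Ezh1-het and double-KO kidneys. On that probe the double-KO arrays read 0.20, 0.40, 0.30 and 0.66, against -0.06, 0.04, 0.04 and 0.02 in control kidneys, with no overlap and an adjusted p of 0.0505 in limma's fit over probes.

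Ret, the signalling receptor gene, had 1 probe (A_55_P2160676), and it was close to background. It was well above background on 3 of 4 Ezh2-KO arrays and on 0 of 4 arrays in each of the other groups, with Cy5 signal 1.27 to 1.99 times the local background in Ezh2-KO, 1.08 to 1.17 times in Ezh1-het and 1.03 to 1.33 times in double-KO kidneys, against 0.987 to 1.11 times in control kidneys. The log2 ratios were 0.13, 0.05, 0.48 and 0.14 in Ezh2-KO kidneys, 0.09, -0.01, 0.11 and 0.00 in Ezh1-het kidneys and 0.08, -0.08, -0.04 and -0.29 in double-KO kidneys, against 0.09, -0.05, -0.22 and -0.14 in control kidneys. The fold of the ratios in Ezh2-KO over control kidneys was 1.21, and the fold set against the lowest measurable signal was 1.32. No control array was well above background. Both folds are point estimates from 4 arrays a group, with no allowance for their spread, and not lower limits. With no filter, limma's fit over all probes gave a difference of 0.28 (95% interval 0.07 to 0.49), and the groups overlapped. Under median centring the Ezh2-KO arrays read 0.12, -0.25, 0.29 and -0.21, against -0.24, -0.0036, -0.39 and -0.33 in control kidneys. In a limma fit with no filter on dim probes, over 22911 genes, the adjusted p was 0.161, 0.529 and 0.992 in Ezh2-KO, Ezh1-het and double-KO kidneys. No difference of Ret from control passed in that fit.

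Gfra1, the co-receptor gene, made by the bud and also by the mesenchyme, set Ezh2-KO and Ezh1-het kidneys apart from double-KO and control kidneys under loess only. Its log2 ratio was 0.26, 0.25, 0.26 and -0.03 in Ezh2-KO kidneys, 0.17, 0.14, 0.28 and 0.22 in Ezh1-het kidneys and 0.48, 0.90, 0.52 and 0.60 in double-KO kidneys, against 0.37, 0.72, 0.76 and 0.49 in control kidneys. Under loess all Ezh2-KO and Ezh1-het arrays lay below all double-KO arrays and below all control arrays. Under median centring both groups overlapped control. The Ezh2-KO arrays then read 0.81, 0.88, 0.91 and 0.80 and the Ezh1-het arrays 0.77, 0.88, 0.87 and 1.06, against 0.78, 0.40, 1.22 and 0.72 in control kidneys. The difference from control was -0.38 in Ezh1-het kidneys (SE 0.11; 1.31-fold lower, limma adjusted p = 0.0414), and it turned to 0.12 under median centring, which was -0.33 relative to the median gene. In Ezh2-KO kidneys it was -0.40 (1.32-fold, limma adjusted p = 0.0541), or 0.070 under median centring. In double-KO kidneys it was 0.04 (95% interval -0.19 to 0.27, limma adjusted p = 0.898), or 0.52 under median centring, where it passed (limma adjusted p = 0.0257). The within-slide values were -0.39 and -0.38 in Ezh1-het kidneys and -0.29 and -0.51 in Ezh2-KO kidneys.

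Limma's call on Gfra1 in Ezh1-het kidneys was not held by every setting: it was lost without any 1 of the 4 Ezh1-het arrays (adjusted p 0.062 to 0.111) and without control 2 or control 3 (0.11 and 0.0963), and also without Ezh2-KO 2, double-KO 3 or double-KO 4 (0.053, 0.0507 and 0.0503), which enter only the shared estimate of spread. Without both controls 2 and 3 the difference was -0.23 (0.42). In Ezh2-KO kidneys Gfra1 passed limma's test without control 1 (-0.47, adjusted p = 0.034) and without double-KO 2 (0.0353). A second Gfra1 probe (A_52_P398998), 4.81 to 12.6 times the local background, differed from control by -0.12, -0.21 and 0.10 in Ezh2-KO, Ezh1-het and double-KO kidneys, with adjusted p = 0.443, 0.175 and 0.646 in limma's fit over all probes kept. On it under loess the Ezh1-het arrays, at 0.03, 0.02, -0.10 and -0.05, lay below all control arrays, at 0.06, 0.18, 0.40 and 0.11, while Ezh2-KO and control arrays overlapped. Under median centring the Ezh1-het arrays read 0.48, 0.58, 0.33 and 0.57 and the Ezh2-KO arrays 0.62, 0.41, 0.45 and 0.73, against 0.37, 0.06, 0.78 and 0.32 in control kidneys. Both groups then overlapped control and had higher means than control.

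The reference sequence around the annotated start of Gfra1, and of the 3 annotated starts of Robo2, is shown because these were the genes that passed the test, and because Polycomb complexes in mammals are found at CpG-rich promoters. Each window runs from 250 bases before to 50 after the start (RefSeq, GRCm38.p6), 5′ to 3′ on the gene's strand, with every CpG in capitals.
Gfra1, chr19:58455349-58455648, minus strand: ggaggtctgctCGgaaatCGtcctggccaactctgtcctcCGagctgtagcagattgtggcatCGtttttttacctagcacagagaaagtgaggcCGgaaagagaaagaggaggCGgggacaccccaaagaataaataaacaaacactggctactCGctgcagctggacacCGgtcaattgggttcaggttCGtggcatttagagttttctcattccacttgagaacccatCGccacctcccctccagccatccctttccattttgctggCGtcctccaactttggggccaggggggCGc
Robo2 start 1, chr16:75447244-75447543, minus strand: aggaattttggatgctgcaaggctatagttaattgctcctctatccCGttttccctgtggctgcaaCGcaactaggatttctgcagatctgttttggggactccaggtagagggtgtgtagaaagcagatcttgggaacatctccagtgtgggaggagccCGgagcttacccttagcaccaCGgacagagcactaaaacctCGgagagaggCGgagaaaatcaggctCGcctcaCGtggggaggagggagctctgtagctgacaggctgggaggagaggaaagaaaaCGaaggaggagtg
Robo2 start 2, chr16:75092721-75093020, minus strand: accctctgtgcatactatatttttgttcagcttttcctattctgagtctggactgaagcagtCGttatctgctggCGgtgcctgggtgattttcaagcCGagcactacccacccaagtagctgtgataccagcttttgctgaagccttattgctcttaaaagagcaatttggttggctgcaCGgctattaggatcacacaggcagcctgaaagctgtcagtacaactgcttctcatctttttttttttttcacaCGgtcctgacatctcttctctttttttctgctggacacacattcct
Robo2 start 3, chr16:74411776-74412075, minus strand: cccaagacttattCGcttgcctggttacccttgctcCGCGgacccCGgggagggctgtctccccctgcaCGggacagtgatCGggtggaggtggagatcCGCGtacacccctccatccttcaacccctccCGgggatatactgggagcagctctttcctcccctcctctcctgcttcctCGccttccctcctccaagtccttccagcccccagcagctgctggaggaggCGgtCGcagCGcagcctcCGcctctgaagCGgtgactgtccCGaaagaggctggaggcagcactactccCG
The Gfra1 window held 12 CpG and the Robo2 windows 9, 5 and 17, beside a median of 7 over all 32851 windows of the table. The windows of the other genes held between 11 and 45: Gdnf 11 and 22, Slit2 30, Etv5 37 and 19, and Wnt11 45 and 23. The share of all windows with fewer CpG was 60.4% for Gfra1 and 54.2%, 38.0% and 68.6% for the Robo2 windows, and from 58.6% to 98.1% for the other members' windows. The letters CCGGAAGT, a core that ETS factors such as ETV4 bind, searched on both strands, were in 3.89% of all windows and in 0 of the 11 member windows.

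Robo2, the receptor gene of the restraining pair, which nephron progenitors and, in the mouse, podocytes express, was lower in Ezh2-KO and Ezh1-het kidneys under loess, a direction that median centring did not keep in Ezh1-het kidneys. Its log2 ratio was -0.45, -0.49, -0.25 and -0.60 in Ezh2-KO kidneys, -0.35, -0.29, -0.46 and -0.34 in Ezh1-het kidneys and -0.28, -0.33, -0.25 and -0.09 in double-KO kidneys, against 0.00, -0.05, 0.45 and 0.00 in control kidneys. Every mutant array lay below every control array, and control 3 stood far above the other controls. Of the 7 tested genes, 2 had such non-overlapping groups in Ezh2-KO kidneys (11.2% of all genes), 3 in Ezh1-het kidneys (17.9%) and 1 in double-KO kidneys (9.34%). The difference was -0.55 in Ezh2-KO kidneys (SE 0.11; 1.46-fold lower, limma adjusted p = 0.0113) and -0.46 in Ezh1-het kidneys (1.38-fold lower, limma adjusted p = 0.0162). In double-KO kidneys it was -0.34 (1.26-fold, 95% interval -0.56 to -0.11, limma adjusted p = 0.089).

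The Robo2 direction rests on the scaling: under median centring the differences were -0.03, 0.09 and 0.19 in Ezh2-KO, Ezh1-het and double-KO kidneys, or -0.44, -0.35 and -0.19 relative to the median gene, against -0.61, -0.51 and -0.34 relative to it under loess. On slide 1 the loess differences were -0.45, -0.30 and -0.28, and on slide 2, which held control 3, -0.65, -0.63 and -0.39. Without controls 2 and 3 they were -0.45 and -0.37 in Ezh2-KO and Ezh1-het kidneys, with limma adjusted p = 0.069 and 0.0953. In a fit of only the 2 groups the adjusted p in Ezh2-KO kidneys was 0.125. In order Robo2 averaged -0.24 ± 0.10 in double-KO, -0.36 ± 0.07 in Ezh1-het and -0.45 ± 0.14 in Ezh2-KO kidneys, against 0.10 ± 0.23 in control kidneys (SD, n = 4 each). The double-KO mean lay between control and the other 2 groups, and the 3 mutant groups overlapped. A second Robo2 probe (A_52_P290236), 2.24 to 6.23 times the local background, differed by -0.34, -0.21 and -0.06 under loess. There only its Ezh2-KO arrays, at -0.31, -0.37, -0.28 and -0.34, lay below all control arrays, at 0.01, -0.24, 0.35 and -0.04 (adjusted p = 0.0763 in limma's fit over all probes kept). Under median centring they overlapped control, at -0.03, -0.15, 0.02 and -0.01 against 0.22, -0.23, 0.65 and 0.12.

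Some markers of nephron progenitors were lower in the same groups. Of 7 nephron progenitor markers tested, 2, 3 and 2 were lower in Ezh2-KO, Ezh1-het and double-KO kidneys, where 0.677%, 1.9% and 0.914% of all genes were lower, and 1, Tmem100, was higher in double-KO kidneys. Among those lower was Cited1, a transcriptional regulator of the undifferentiated progenitor, at -0.69, -0.79 and -0.90 (limma adjusted p = 0.0104, 0.00254 and 0.000586). Crym, another progenitor marker, differed by -0.66, -0.90 and -0.85 (limma adjusted p = 0.0494, 0.0054 and 0.00738), and its call in Ezh2-KO kidneys was lost under 26 of 29 alternatives, among them the loss of any 1 array other than double-KO 4. Under median centring Cited1 differed by -0.15, -0.18 and -0.31 and Crym by -0.09, -0.23 and -0.16, and neither passed. The mean over the list ranged from -0.30 to -0.07 on Ezh2-KO arrays, -0.59 to -0.14 on Ezh1-het arrays and -0.40 to -0.01 on double-KO arrays, against -0.14 to 0.46 on control arrays, and control 3 had the highest value in both this list and Robo2. All 7 were well above background on all 16 arrays. Of 6 podocyte markers, 4 were higher in Ezh1-het kidneys, where 5.91% of all genes were, and 0 passed in Ezh2-KO or double-KO kidneys in limma, or had an unadjusted p under 0.05 there. None of the 4 passed without controls 2 and 3 (adjusted p 0.112 to 0.252). Their list mean was -0.35 to 0.50 on Ezh2-KO arrays, 0.39 to 0.73 on Ezh1-het arrays and -0.20 to 0.11 on double-KO arrays, against -0.49 to 0.00 on control arrays. The part of these cells in the Robo2 values was not tested.

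**Figure D2:**
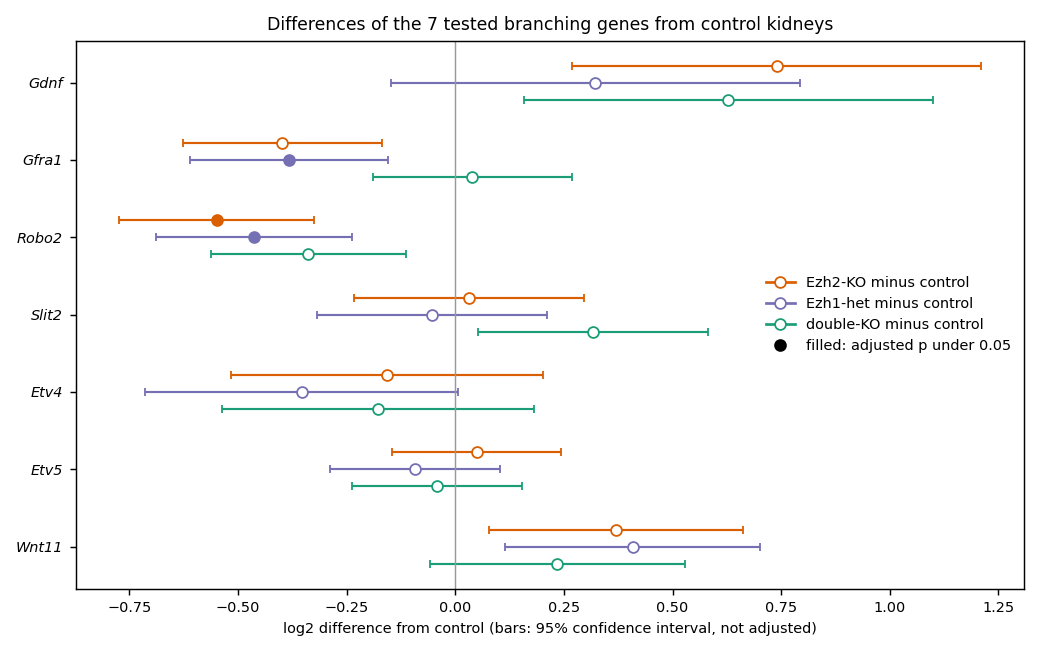
Points are log2 differences from control kidneys under loess for the 7 tested genes, with unadjusted 95% confidence intervals, and filled points passed the limma test after adjustment over all genes. Robo2 in Ezh2-KO (-0.55) and Ezh1-het (-0.46) kidneys and Gfra1 in Ezh1-het kidneys (-0.38) are filled; under median centring these 3 read -0.03, 0.092 and 0.12.

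Slit2, the ligand gene of ROBO2, gave different answers on its probes. On the brightest (A_51_P496569), its log2 ratio was 0.03, 0.00, -0.30 and -0.16 in Ezh2-KO kidneys, -0.12, -0.28, -0.16 and -0.21 in Ezh1-het kidneys and 0.34, -0.17, 0.26 and 0.28 in double-KO kidneys, against -0.05, -0.36, 0.15 and -0.28 in control kidneys. Of the double-KO arrays, 3 lay above all other arrays and array 2 lay among them. The differences from control were 0.03, -0.05 and 0.32 (limma adjusted p = 0.905, 0.819 and 0.195), and the Ezh1-het value turned to 0.52 under median centring, 0.07 above the median gene. A second probe (A_55_P2639641) read 0.08, 0.01, -0.29 and -0.51 in Ezh2-KO kidneys, 0.06, -0.28, 0.29 and -0.11 in Ezh1-het kidneys and 0.64, 0.60, 0.40 and 0.48 in double-KO kidneys, against 0.23, 0.73, 0.42 and 0.17 in control kidneys. On that probe under loess Ezh2-KO kidneys differed from control by -0.57 with no overlap (limma adjusted p = 0.0512 over all probes) and Ezh1-het kidneys by -0.40 (0.111), while double-KO kidneys differed by 0.14 (0.703). Under median centring its Ezh2-KO arrays overlapped control, at 0.51, 0.46, 0.16 and 0.05 against 0.55, 0.60, 0.79 and 0.38. A further Slit2 probe (A_55_P2903141) was well above background on 2 of 4 arrays in the Ezh2-KO, double-KO and control groups and on 0 of 4 in the Ezh1-het group, and its differences from control were -0.07, -0.11 and -0.0067. Without double-KO 2, the brightest probe's difference in double-KO kidneys was 0.43 and passed limma's test (adjusted p = 0.0431).

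**Figure D3:**
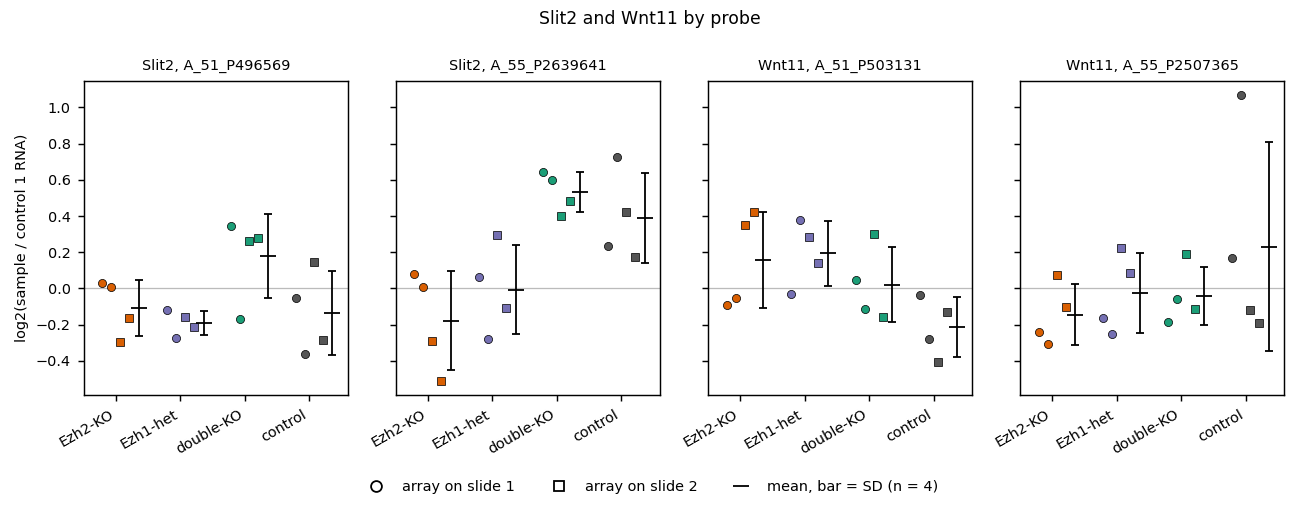
Each point is 1 array, as log2 of the kidney's signal over control 1 RNA, for 2 probes of Slit2 and 2 of Wnt11, with mutant groups left of control kidneys. The second Slit2 probe separates double-KO arrays (0.40 to 0.64) from Ezh2-KO arrays (-0.51 to 0.08), and the Wnt11 probes order mutant and control means in opposite ways, with control 2 at 1.07 on the second.

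The response genes of the bud tip passed in no comparison under loess. Etv4, an ETS factor gene that RET signalling turns on, had log2 ratios of -0.12, -0.20, -0.46 and -0.61 in Ezh2-KO kidneys, -0.84, -0.41, -0.59 and -0.34 in Ezh1-het kidneys and -0.69, -0.23, -0.50 and -0.05 in double-KO kidneys, against -0.19, -0.36, 0.24 and -0.44 in control kidneys. All groups overlapped, and its differences were -0.16, -0.35 and -0.18 (limma adjusted p = 0.599, 0.203 and 0.657), or 0.42, 0.30 and 0.46 under median centring. Its second probe (A_55_P1959521) gave -0.19, -0.31 and 0.0029. Etv5, the partner of Etv4, had the smallest standard error of the 7 genes, 0.092, and read 0.40, 0.30, 0.26 and 0.18 in Ezh2-KO kidneys, -0.06, 0.18, 0.22 and 0.24 in Ezh1-het kidneys and 0.01, 0.25, 0.15 and 0.37 in double-KO kidneys, against 0.25, 0.12, 0.37 and 0.20 in control kidneys. Its differences were 0.05, -0.09 and -0.04 with 95% intervals within -0.29 to 0.24 under loess (limma adjusted p = 0.781, 0.56 and 0.872), and 0.62, 0.57 and 0.59 under median centring, 0.20, 0.12 and 0.21 above the median gene. Etv5 passed in all 3 groups under that scaling (limma adjusted p = 0.0367, 0.041 and 0.0467).

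Wnt11, the ligand gene of the bud tip that acts back on the mesenchyme, was dimmer (A_51_P503131), 1.49 to 5.15 times the local background. It read -0.09, -0.05, 0.35 and 0.42 in Ezh2-KO kidneys, -0.03, 0.38, 0.29 and 0.14 in Ezh1-het kidneys and 0.05, -0.11, 0.30 and -0.16 in double-KO kidneys, against -0.04, -0.28, -0.41 and -0.13 in control kidneys. Only the Ezh1-het arrays lay above all control arrays, and they did so narrowly. The differences were 0.37, 0.41 and 0.23 in Ezh2-KO, Ezh1-het and double-KO kidneys (limma adjusted p = 0.143, 0.0791 and 0.423). Under median centring they were 0.49, 0.53 and 0.35 (limma adjusted p = 0.0369, 0.0228 and 0.107), or 0.075, 0.085 and -0.027 relative to the median gene. The Ezh2-KO value was 0.09 on slide 1 and 0.65 on slide 2. The other Wnt11 probe (A_55_P2507365), 2.20 to 4.16 times the local background, differed from control the opposite way, by -0.38, -0.26 and -0.27, with control 2 at 1.07 and the other controls at 0.17, -0.12 and -0.19, and on slide 2 alone its differences were 0.14, 0.31 and 0.19. With the mean of both probes in place of the brighter one, the Wnt11 differences of Ezh2-KO, Ezh1-het and double-KO kidneys were -0.0032, 0.076 and -0.020.

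Double-KO kidneys were compared with Ezh2-KO kidneys for the effect of losing both Ezh1 alleles beside Ezh2. No member passed in limma's fit over genes (0 of 7, where 0.914% of all genes did), and 2 of 7 had an unadjusted p under 0.05 (12.7% of all genes). Gfra1 was 0.44 higher (SE 0.11; 1.35-fold, limma adjusted p = 0.0725), with no overlap, and it was the 1 of 7 genes whose arrays did not overlap (7.57% of all genes). The value was 0.43 on slide 1 and 0.44 on slide 2, and 0.45 under median centring. The second Gfra1 probe was 0.23 higher, with overlapping arrays and an adjusted p of 0.333 in limma's fit over all probes kept. On the fit over probes, the second Slit2 probe passed, higher in double-KO kidneys by 0.71 (SE 0.15; 1.64-fold, limma adjusted p = 0.0358, no overlap), where 0.674% of all probes passed. It was 0.58 on slide 1 and 0.84 on slide 2. The call was lost without any 1 of the 4 double-KO arrays (adjusted p 0.0636 to 0.116) and without Ezh2-KO array 2, 3 or 4 (0.0579 to 0.0866), and without Ezh1-het 4 (0.0521). The brightest Slit2 probe was higher by 0.29 (adjusted p = 0.359). Gdnf differed by -0.11 (95% interval -0.58 to 0.36), with -0.68 on slide 1 and 0.46 on slide 2.

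The step of the second Ezh1 allele, double-KO against Ezh1-het kidneys, was added as a comparison after the data had been examined. Again 0 of 7 genes passed in limma (0.377% of all genes), with 2 of 7 at an unadjusted p under 0.05 (13.7% of all genes) and 1 of 7 without overlap (12.7% of all genes). That gene was Gfra1, 0.42 higher (1.34-fold, limma adjusted p = 0.0929), and its second probe was higher by 0.31 with no overlap. Slit2 was 0.37 higher on its brightest probe (adjusted p = 0.186) and 0.54 higher on its second, where all double-KO arrays lay above all Ezh1-het arrays (adjusted p = 0.153 over probes). Of the 6 genes with more than 1 probe kept, all 6 had probes that shared a sign here, 3 of 6 in double-KO against Ezh2-KO kidneys, and 4, 5 and 3 of 6 in Ezh2-KO, Ezh1-het and double-KO kidneys against control.

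Other genes of the pathway were taken from lists chosen with earlier results of these data known, and 2.4%, 5.91% and 3.71% of all genes were higher in Ezh2-KO, Ezh1-het and double-KO kidneys. Of 17 mesenchymal genes that act upstream of Gdnf, 0, 0 and 2 were higher and 0, 0 and 1 lower in Ezh2-KO, Ezh1-het and double-KO kidneys in limma. Of all genes, 0.914% were lower in double-KO kidneys. At an unadjusted p under 0.05 stood 1, 6 and 3 of the 17, beside 21.3%, 25.4% and 17.1% of all genes. Six4, a homeobox factor gene, read 0.35, 0.20, 0.12 and 0.41 in Ezh2-KO kidneys, 0.32, 0.41, 0.17 and 0.52 in Ezh1-het kidneys and 0.40, 0.66, 0.37 and 0.70 in double-KO kidneys, against 0.13, 0.05, 0.16 and -0.12 in control kidneys. All Ezh1-het and double-KO arrays lay above all control arrays, and the difference in double-KO kidneys was 0.48 (limma adjusted p = 0.0118). Grem1, which encodes a secreted BMP antagonist that permits bud outgrowth, read 0.11, 0.15, 0.09 and 0.30 in Ezh2-KO kidneys, 0.31, 0.28, 0.34 and 0.21 in Ezh1-het kidneys and 0.51, 0.56, 0.73 and 0.32 in double-KO kidneys, against 0.11, 0.03, 0.02 and -0.04 in control kidneys. Again all Ezh1-het and double-KO arrays lay above all control arrays. Its probe was well above background on 0 of 4 control arrays. The fold of its ratios in double-KO over control kidneys, 1.41 (limma adjusted p = 0.00161), is a point estimate and not a lower limit. In double-KO kidneys Grem1 also exceeded Ezh2-KO kidneys by 0.37 (limma adjusted p = 0.0482, where 0.639% of all genes were higher), a call that did not hold under 21 of its 29 alternatives. Hoxd11, a patterning gene of the mesenchyme, was lower in double-KO kidneys (difference -0.54, limma adjusted p = 0.0345). That call did not hold under 11 of its alternatives, among them median centring (-0.21) and the loss of double-KO 1, 3 or 4 or of control 2, 3 or 4. The list's median difference was -0.07, -0.07 and 0.0036, beside 0.06, 0.05 and 0.01 over all genes.

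Some relatives of Gdnf and Gfra1 passed as higher in mutant kidneys under loess, which Gdnf and Gfra1 themselves did not. Of the 5 tested genes of the GDNF family, 1, 2 and 3 were higher in Ezh2-KO, Ezh1-het and double-KO kidneys, none passed downwards, and Pspn was not tested. Gfra2, the receptor gene for neurturin, read 1.11, 1.05, 0.66 and 0.44 in Ezh2-KO kidneys, 0.64, 0.65, 0.75 and 0.69 in Ezh1-het kidneys and 1.15, 1.08, 1.16 and 1.56 in double-KO kidneys, against -0.11, -0.36, 0.22 and -0.13 in control kidneys. Every mutant array lay above every control array, and the differences were 0.91, 0.78 and 1.33 (limma adjusted p = 0.00406, 0.00575 and 5.85e-05). Gfra2 had the slide pattern of Gdnf in Ezh2-KO kidneys, with 1.32 on slide 1 and 0.50 on slide 2. Artn, which encodes the ligand artemin, was 0.60 and 0.52 higher in Ezh1-het and double-KO kidneys (limma adjusted p = 0.0052 and 0.0122), and in Ezh2-KO kidneys the difference was 0.42 (0.0541). Gfra3, the artemin receptor gene, was 0.79 higher in double-KO kidneys (limma adjusted p = 0.0242), with control 3 at 0.52 overlapping them. Artn passed in neither group without controls 2 and 3 (adjusted p = 0.0832 and 0.118) and not in double-KO kidneys without double-KO 3 (0.0549), and Gfra3 did not pass without double-KO 3 or 4 or without control 1, 2 or 4 (0.0548 to 0.083). Gfra4, the persephin receptor gene, had differences of -0.46, -0.50 and -0.31 in Ezh2-KO, Ezh1-het and double-KO kidneys (limma adjusted p = 0.159, 0.0955 and 0.415), and Nrtn, the neurturin gene, of -0.04, 0.14 and 0.06. The list's median difference was 0.39, 0.53 and 0.52.

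Of 9 tested RET-responsive genes of the bud tip, which include the feedback inhibitor genes Spry1, Spry2 and Dusp6, 0 passed in any comparison in limma. Against control, 1, 2 and 0 had an unadjusted p under 0.05 in Ezh2-KO, Ezh1-het and double-KO kidneys, beside 21.3%, 25.4% and 17.1% of all genes. Spry4 and Sox8 were not tested, and the list's median difference was 0.04, -0.0044 and -0.02. Of 8 further Slit-Robo genes, only Slit3 passed, in double-KO kidneys, by 0.66 (limma adjusted p = 0.0493), where 3.71% of all genes were higher. That call was lost under 19 of its alternatives, among them the loss of any 1 Ezh1-het, double-KO or control array.

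**Figure D4:**
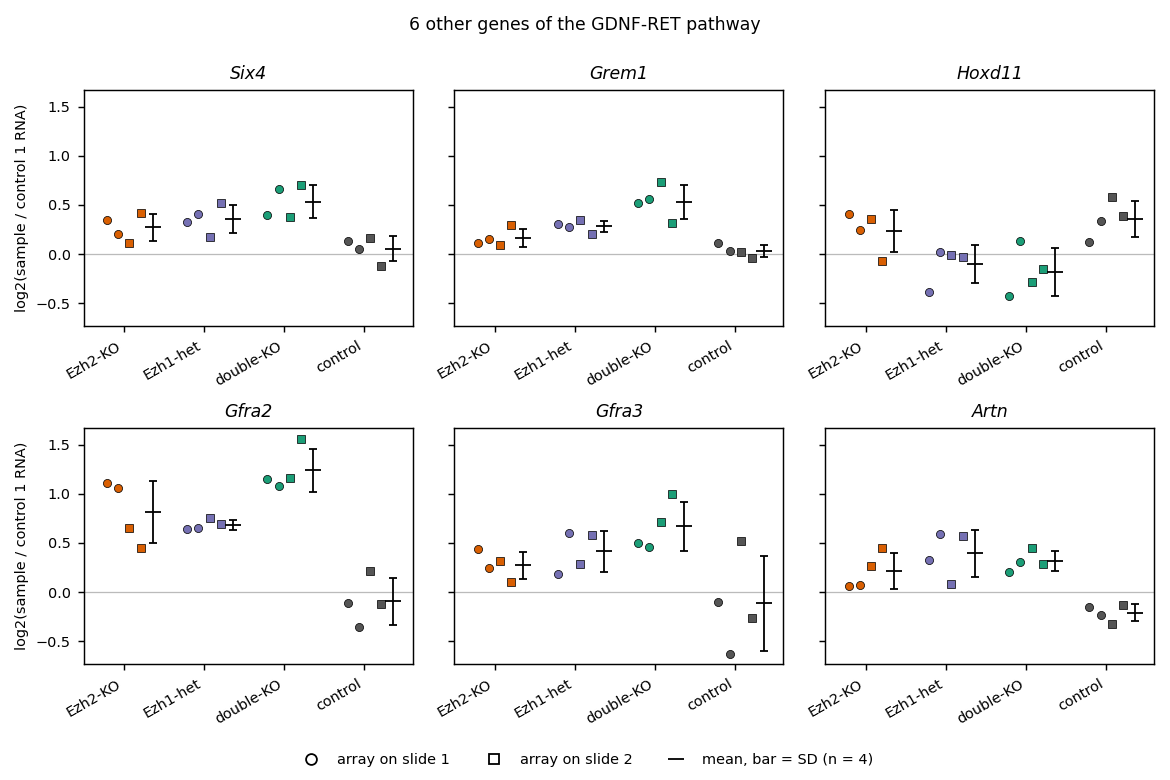
Each point is 1 array, as log2 of the kidney's signal over control 1 RNA, for 6 other pathway genes, with mutant groups left of control kidneys and bars for mean and SD. Gfra2 lies above all control arrays in every mutant group, and Six4 and Grem1 lie above all control arrays in Ezh1-het kidneys (0.17 to 0.52 and 0.21 to 0.34) and double-KO kidneys (0.37 to 0.70 and 0.32 to 0.73).

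The cells that the axis connects were read through markers. Of all genes, 2.4%, 5.91% and 3.71% passed as higher against control in Ezh2-KO, Ezh1-het and double-KO kidneys. In the same order, 21.3%, 25.4% and 17.1% of all genes had an unadjusted p under 0.05. Of 12 ureteric bud and collecting duct markers, 0, 1 and 1 passed in Ezh2-KO, Ezh1-het and double-KO kidneys, the 1 being Krt19, an epithelial keratin, higher by 0.89 and 1.27 (limma adjusted p = 0.0156 and 0.00107). The list mean ranged from -1.18 to 0.37 on Ezh2-KO arrays, 0.01 to 0.31 on Ezh1-het arrays and -0.50 to -0.04 on double-KO arrays, against -1.38 to -0.07 on control arrays. Under loess every Ezh1-het mean thus lay above every control mean. The list's median difference was 0.21, 0.80 and 0.09 in Ezh2-KO, Ezh1-het and double-KO kidneys, beside 0.06, 0.05 and 0.01 over all genes. Of the 12 genes, 0, 4 and 2 had an unadjusted p under 0.05. Early nephron markers were higher for 2 of 5 genes in Ezh1-het and double-KO kidneys, Pax8 by 0.38 and 0.62 and Fgf8 by 0.61 and 0.66 (limma adjusted p from 0.0025 to 0.0438), with none in Ezh2-KO kidneys. The Pax8 call in Ezh1-het kidneys was lost under 17 of 29 alternatives, among them the loss of any 1 Ezh1-het or control array. Stromal markers were higher for 1, 1 and 2 of 5 tested genes, with Meis1 in every mutant group (0.80, 0.56 and 0.86) and Foxd1 in double-KO kidneys (0.72). The Meis1 call in Ezh1-het kidneys was lost under 22 of 29 alternatives and the Foxd1 call under 18, and both were lost without controls 2 and 3 (adjusted p = 0.422 and 0.0513), as were the Meis1 calls in Ezh2-KO and double-KO kidneys (0.173 and 0.0538). Of 7 tested markers of neural crest, neurons and Schwann cells, which also use GDNF family receptors, 0 passed in any comparison in limma (2, 1 and 1 at an unadjusted p under 0.05 in Ezh2-KO, Ezh1-het and double-KO kidneys against control), and their list mean lay between -0.02 and 0.23 on Ezh2-KO, -0.01 and 0.10 on Ezh1-het and 0.03 and 0.15 on double-KO arrays, against 0.01 to 0.13 on control arrays. Proximal tubule and loop of Henle markers, 3 and 2 genes, passed in no comparison in limma (0, 0 and 1 proximal tubule genes and 0, 1 and 1 loop genes at an unadjusted p under 0.05 against control). In double-KO against Ezh1-het kidneys 3 of 3 and 2 of 2 had an unadjusted p under 0.05, beside 13.7% of all genes. The proximal tubule mean lay between -2.54 and 0.21 on Ezh2-KO, -0.29 and 0.48 on Ezh1-het and -2.52 and -1.07 on double-KO arrays, against -1.99 to 0.27 on control arrays. The loop mean lay between -1.56 and 0.77 on Ezh2-KO, -0.06 and 0.68 on Ezh1-het and -2.57 and -1.14 on double-KO arrays, against -2.18 to 0.42 on control arrays. Double-KO arrays lay wholly below Ezh1-het arrays in both. The part of these cells in the members' values was not tested.

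**Figure D5:**
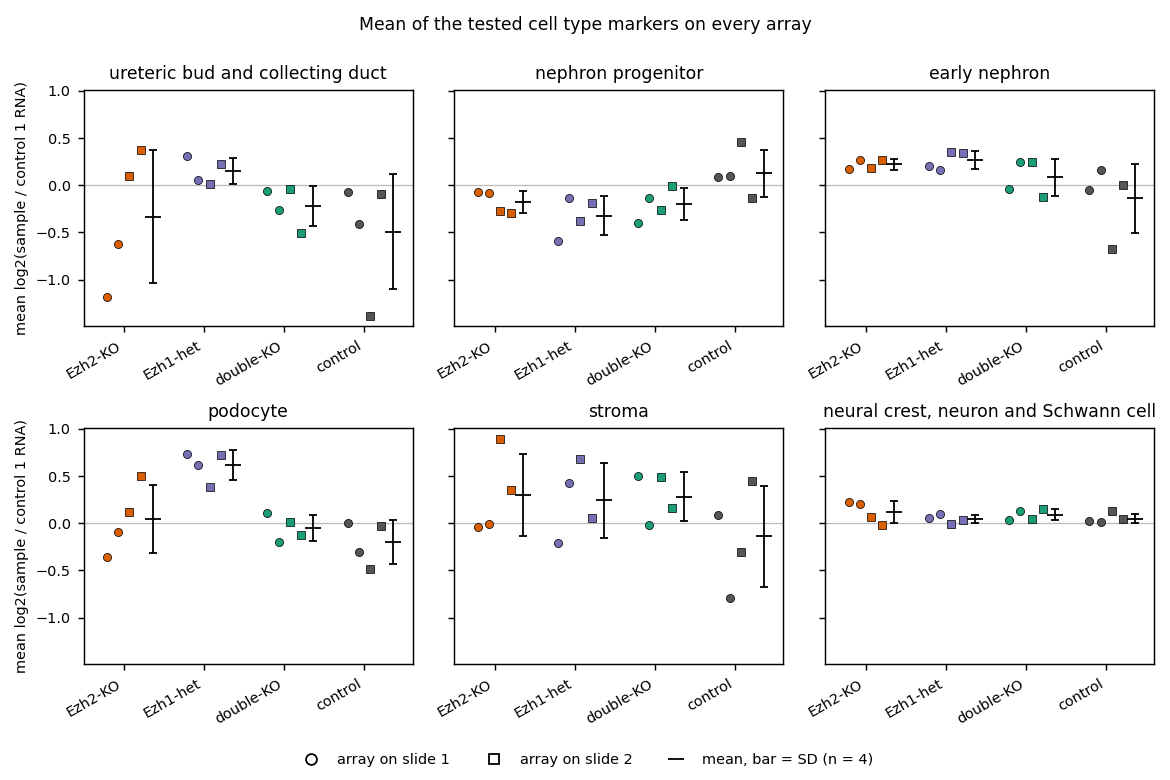
Each point is the mean log2 ratio to control 1 RNA over the tested markers of 1 cell type on 1 array, with mutant groups left of control kidneys. Podocyte means span -0.35 to 0.50 on Ezh2-KO, 0.39 to 0.73 on Ezh1-het and -0.20 to 0.11 on double-KO arrays, against -0.49 to 0.00 on control arrays, and the bud and duct mean is lowest on control 3 (-1.38) and Ezh2-KO 1 (-1.18).

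The genes whose log2 ratios were most like those of 4 members over the 16 arrays are given as a description. Gdnf was closest to Peg13, an imprinted noncoding RNA gene (Pearson r = 0.951), followed by Sh3pxd2a, Ptpn5, Pdlim4 and Rnf165 (r from 0.925 to 0.913). Wnt11 was closest to Scube2 (r = 0.933), followed by Tuba1c, Ankrd44, Dapp1 and 1700071K01Rik (r down to 0.916). Gfra1 was closest to Cbx5, the gene of a heterochromatin protein (r = 0.899), followed by B130006D01Rik, Rpl28, Ralgapa2 and Trrap (r down to 0.883). The near-background Ret probe was closest to Treml2 (r = 0.851), Vaultrc5, Plbd1, Ptprc and Gimap6 (r down to 0.796), of which Ptprc encodes the leukocyte antigen CD45. All 16 arrays share 1 reference RNA, and arrays of a group share their genotype, so these values are not independent points.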

How the data were processed

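Whole-kidney total RNA was hybridised to 16 two-colour Agilent oligonucleotide arrays, 4 for each of 4 genotypes. Per the file headers, the deposited scanner files hold spot and background intensity values from Agilent Feature Extraction 10.7.3.1 (also named in the submitters' processing notes), and the authors' log10 ratios of Cy5 over Cy3. The authors' value table holds the same log10 ratios, within 0.005 of the scanner files, uncentred by gene, with every column's median at 0. The array annotation is of the mm9 build, per the file headers.

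From the deposited median intensity values, background was corrected with normexp (offset 50), loess was run within arrays with control and flagged spots at weight 0, and spots of a probe were averaged (limma 3.58.1, R 4.3.3). Deposited intensities became log2 ratios. Probes were kept where Cy5 was well above background on 4 or more of the 16 arrays (34731 of 56605), of which 22862 had a gene name. The brightest probe stood for each of 15646 genes, and 14 of 15 member probes were kept. All arrays entered 1 lmFit and eBayes fit, with Benjamini-Hochberg adjustment over all genes, and a separate fit over all kept probes. The test was run on simulated data with independent noise for each gene. Those data lack the deviations that genes share within an array. The changes added there were larger than any member's difference over all arrays under loess, so the run does not cover these features of the data. The number of arrays limits the precision.

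The members and gene lists were chosen with earlier results of these data known. Named beside the 8 members were list genes past the threshold, up to 6 a list by p, and the 5 genes most like Ret, Gdnf, Wnt11 and Gfra1 by Pearson r. Replicate numbers did not pair samples: deviations of same-numbered arrays correlated between -0.478 and 0.515, over 0.1 in 8 of 24 pairs. Alternatives covered scaling, background, filter, probe choice, variance model, array weights, slide, replicate number and left-out arrays. Promoter windows came from RefSeq (GRCm38.p6), with 6 of 8 members matched. Probe sequences and protein sequences were not used here. Some list genes are not reported here and were left out of the list counts.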

Additional observations from a re-analysis of the deposited data

Results flagged for a closer look

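Over the 15 probes in the 4 groups, 60 sets of 4 arrays, 4 held an array far from its 3 neighbours by Dixon's ratio, and chance alone marks about 1 set in 20. Robo2 on its brightest probe stood at 0.448 on control 3, where the other controls lay between -0.0509 and 0.00337. Gfra1 on its brightest probe stood at -0.0284 on Ezh2-KO 4, where the other Ezh2-KO arrays lay between 0.253 and 0.262. Slit2 on its brightest probe stood at -0.169 on double-KO 2, where the other double-KO arrays lay between 0.261 and 0.343. The dimmer Gdnf probe stood at -0.0610 on control 1, the array of control 1 RNA against itself, where the other controls lay between 0.0233 and 0.0388.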

How the results depend on the processing

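The 35 differences of the 7 tested members were recomputed under 29 alternatives each, 1015 values in all: 922 kept their direction and their side of the threshold, 23 lost a call, 24 gained one and 46 changed sign. Of 986 such values for the other named genes, 743 held, 243 lost the call and 0 changed sign. Causes were not tested. The limits are 4 arrays a group, 1 reference RNA, no dye swap, and probes near background such as that of Ret.

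Median centring gave, against control, 6839, 8037 and 5364 genes called in Ezh2-KO, Ezh1-het and double-KO kidneys, where loess gave 482, 1222 and 723 (6668, 7745 and 5191 higher, against 376, 925 and 580 under loess), and 3, 3 and 4 members called, all higher, where loess called 1, 2 and 0, all lower. Signs turned for Etv4 (0.42, 0.30 and 0.46 in Ezh2-KO, Ezh1-het and double-KO kidneys, and 0.040 in double-KO minus Ezh2-KO), Etv5 (0.57 in Ezh1-het and 0.59 in double-KO), Gfra1 (0.070 in Ezh2-KO and 0.12 in Ezh1-het), Robo2 (0.092 in Ezh1-het and 0.19 in double-KO) and Slit2 (0.52 in Ezh1-het). Array weights gave 881, 2217 and 1407 genes against control, 703 in double-KO minus Ezh2-KO and 756 in double-KO minus Ezh1-het, with 2 members called in Ezh2-KO minus control, 3 in double-KO minus control, 1 in double-KO minus Ezh2-KO and 2 in double-KO minus Ezh1-het; Etv5 turned to -0.0058 in double-KO minus Ezh1-het and Wnt11 to 0.079 in double-KO minus Ezh2-KO. A fit of only the 2 groups gave 59 genes in Ezh2-KO and 442 in double-KO minus control, 66 in double-KO minus Ezh2-KO and 1033 in double-KO minus Ezh1-het, with 0 members in Ezh2-KO, and 1 each in Ezh1-het and double-KO minus Ezh1-het. The mean of all probes turned Etv4 (0.087) and Gdnf (0.046) in double-KO minus Ezh2-KO, Slit2 in Ezh2-KO (-0.20), and Wnt11 in Ezh2-KO (-0.0032) and double-KO (-0.020). The software's ratio gave 37 genes in double-KO minus Ezh1-het and 1 member in Ezh1-het, and turned Etv4 (0.051) and Etv5 (0.0042) in double-KO minus Ezh2-KO and Etv5 in double-KO (0.10). The trend and robust variance model left 1 member in Ezh1-het.

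Slide 1 alone gave 162, 138 and 229 genes against control and 34 in double-KO minus Ezh1-het, with 0 members in Ezh1-het, and turned Etv4 in Ezh2-KO (0.12), Slit2 in Ezh1-het (0.0077) and Wnt11 in double-KO minus Ezh2-KO (0.041). Slide 2 alone gave 6, 37 and 113 genes, 13 in double-KO minus Ezh2-KO and 3 in double-KO minus Ezh1-het, with 0 members in Ezh2-KO and Ezh1-het, and turned Etv4 (0.26), Etv5 (0.042) and Gdnf (0.46) in double-KO minus Ezh2-KO, Etv5 (-0.067) and Slit2 (-0.16) in Ezh2-KO and Gfra1 in double-KO (-0.067). Without controls 2 and 3 there were 78, 235 and 450 genes, 217 in double-KO minus Ezh2-KO and 314 in double-KO minus Ezh1-het, with 0 members in Ezh2-KO and Ezh1-het and 1 in each comparison of double-KO with another mutant group. Leaving out 1 array at a time gave 202 to 515, 487 to 1484 and 441 to 922 genes against control, 84 to 199 in double-KO minus Ezh2-KO and 26 to 285 in double-KO minus Ezh1-het, with between 1 and 2 members called in Ezh2-KO and Ezh1-het kidneys and 0 to 1 in double-KO kidneys. Over the same left-out arrays, Slit2 ranged from -0.044 to 0.13 in Ezh2-KO and -0.13 to 0.040 in Ezh1-het, Gfra1 from -0.051 to 0.10 and Etv5 from -0.10 to 0.021 in double-KO, Etv4 from -0.13 to 0.086 and Gdnf from -0.25 to 0.045 in double-KO minus Ezh2-KO, and Etv5 from -0.017 to 0.11 in double-KO minus Ezh1-het. The replicate block gave 462, 1125 and 740 genes against control, 122 in double-KO minus Ezh2-KO and 41 in double-KO minus Ezh1-het, and left the members called at 1, 2, 0, 0 and 0.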
